A study of Homo sapiens with 8 samples.

Results

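The genes described here encode the collagens, the laminin chains and the integrin subunits, together with 4 proteins that join these networks: fibronectin (FN1), the nidogens NID1 and NID2, and the proteoglycan perlecan (HSPG2). They were taken by gene symbol alone from a table of 14526 genes, which held 63 of them. The GENCODE annotation has 82 protein-coding genes that match the symbol patterns used, which do not take the integrin α genes ITGA2B, ITGAD, ITGAL and ITGAM. Among the matching genes, the table had a row for 29 of 44 collagen genes, 11 of 12 laminin genes, 19 of 22 integrin genes and all 4 joining proteins. The 19 without a row were COL1A2, COL5A3, COL8A1, COL8A2, COL9A1, COL10A1, COL11A1, COL15A1, COL16A1, COL17A1, COL20A1, COL21A1, COL22A1, COL23A1, COL28A1, LAMB4, ITGA11, ITGB2 and ITGB6. RNA came from cultured cells labelled HepG2, a line derived from a human liver cancer, in 2 groups of 4 libraries. The control cells were grown in DMEM with 10% serum and received no benzoate, and the SB-treated cells were grown alike and exposed to 10 mM sodium benzoate (SB) for 24 h before harvest. SB is a food preservative and drug, and the study asked which genes respond when it raises benzoylation of histone lysines. All 8 libraries came from 1 line, with a single dose and a single time. Of 20 hepatocyte markers, which include albumin and the apolipoproteins, the table had a row for 2, among them TF (transferrin) at 0.167 to 0.21 RPKM in the control libraries. The other 18 had no row, so the label's cell type could not be seen in its defining markers, and the cells are called here by their group names. Of 8 epithelial markers 3 had no row. The keratins KRT8 and KRT18 were present at 25.4 to 38.5 RPKM over all 8 libraries, and CDH1, CLDN4 and ESRP1 at 0.123 to 1.0 RPKM.

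Collagens are trimers of chains wound into a triple helix. Fibrillar collagens build the rope-like fibres of connective tissue, FACIT collagens attach to the surface of those fibres, and collagen IV chains assemble into the flat network of the basement membrane. Laminins are cross-shaped trimers of an α, a β and a γ chain, and they form a second network of that membrane, which nidogen and perlecan tie to collagen IV. Integrins are pairs of an α and a β subunit in the cell membrane. They hold the cell to collagen, laminin or fibronectin, with the α subunit largely setting which of these is bound, and pass signals inward.

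The libraries held between 36990091 and 44878446 recovered reads, and the least covered value among the 63 genes was 15 reads. Levels are given as RPKM, that is, reads scaled to gene length and to library size. Comparisons between genes rest on the length used, which was 0.26 (ITGA1) to 6.24 (COL11A2) times that of the annotated exons. Fold changes are SB-treated over control on log2(RPKM + 1), with their standard errors, from limma fitted to all 14526 genes, and the 1 that is added makes the change of genes below about 1 RPKM look smaller than it is. A gene was called higher or lower where the adjusted p (Benjamini-Hochberg over all genes) was below 0.05. The deposited values include scaling factors of 0.957 to 0.969 in the control and 1.03 to 1.04 in the SB-treated libraries, and removing these factors shifted the median of all genes from 0.0077 to 0.11 on the log2 scale. In RNA from whole cultures, fewer cells of a type and less RNA per cell cannot be told apart.

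SB changed the 63 genes in both directions, with 23 higher, 21 lower and 19 not called. Over all genes 33% were called higher and 32.6% lower, so the share called among the 63 was near the background. Their median log2 fold change was 0.028, against 0.0045 over all genes. Without the scaling factors 29 of the 63 and 6253 of all genes were called higher, and 15 and 3357 lower. COL13A1, COL18A1, ITGA6, LAMA5 and NID2 were among those no longer called, and COL5A2, COL6A3, COL24A1, ITGA2, ITGA7 and ITGAX were called higher. With a fold threshold of 0.5 on the log2 scale, 1 of them passed as higher (LAMA3) against 5.12% of all genes, and 3 passed as lower (COL9A3, COL2A1 and COL6A1) against 5.45% of all genes. Every SB-treated library lay above every control library for 20 of the 63, against 31% of all genes, and below for 19, against 30.5%. When fold changes were corrected for the GC content and length of each gene, an alternative added once the data had been seen, 13 were called higher and 30 lower. The 10 rises lost there were those of COL4A3, COL4A6, COL5A1, COL6A2, COL6A5, COL7A1, COL19A1, COL27A1, ITGA10 and ITGB5, and COL1A1, COL4A1, COL6A3, COL11A2, LAMA1, LAMA2, LAMC1, LAMC3 and ITGB4 became called lower. With log2 CPM corrected in the same way, COL4A6, COL5A1, COL27A1 and ITGB5 were again not called. COL4A3, COL6A5, COL7A1, COL19A1 and ITGA10 were called higher in that fit, and COL6A2 was called lower. Of the genes that had become lower, COL6A3 was called higher there (0.44, limma adjusted p = 0.0285) and LAMA2 and ITGB4 were not called. The others were again called lower. With a pseudocount of 0.1 in place of 1, 10 passed the fold threshold as higher and 7 as lower. COL4A3 and ITGA10 exceeded 1 CPM (reads scaled to library size) in the SB-treated libraries alone, so a filter on low values could keep them only if they were higher there.

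**Figure D1:**
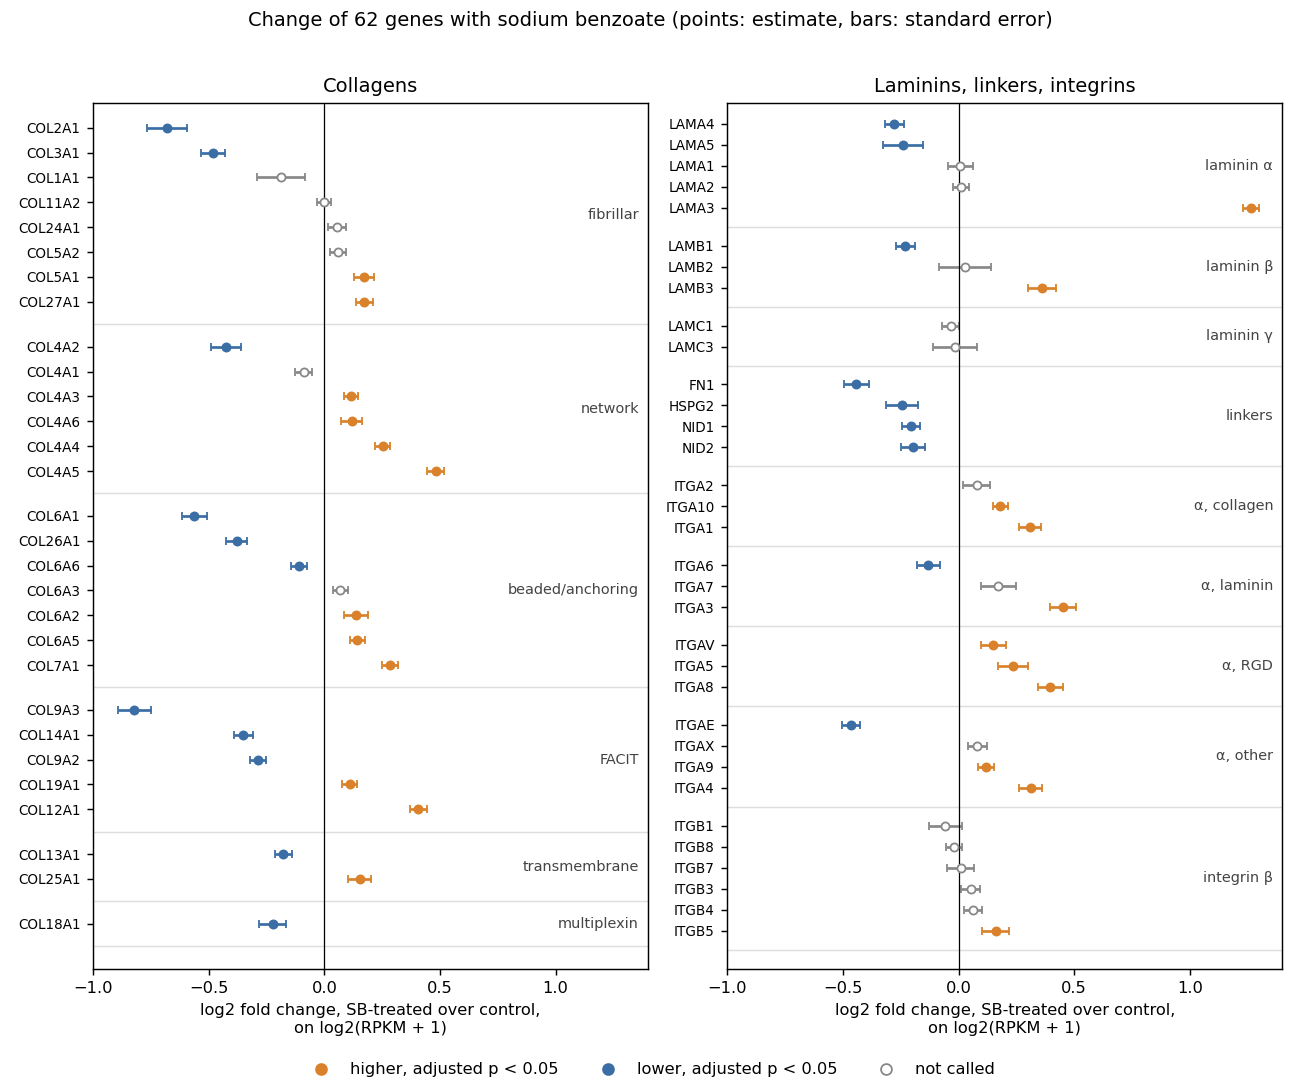
Log2 fold change of SB-treated over control on log2(RPKM + 1) for 62 of the 63 genes (horizontal axis), by structural class, with points for the estimate and bars for the standard error over 4 and 4 libraries. Orange points were called higher, blue points lower and open points not called at an adjusted p of 0.05, and LAMA3 at 1.26 lies apart from the other genes, which run from -0.82 to 0.48.

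LAMA3 rose the most of the 63. It encodes the laminin α3 chain, which in epithelia anchors the cell to the basement membrane. Its RPKM in the control libraries was 2.34, 2.5, 2.56 and 2.55, and in the SB-treated libraries 7.48, 7.24, 7.47 and 7.29. Every SB-treated library lay far above every control library, and the mean went from 2.49 ± 0.102 to 7.37 ± 0.122 (SD, n = 4), a ratio of 2.96. The log2 fold change was 1.26 ± 0.034 (limma adjusted p = 4.65e-08). α3 made up 18.1% ± 1.01 of the summed RPKM of the 5 α chains in control cells and 42.2% ± 1.18 in SB-treated cells, while LAMA1, the α chain of early embryonic membranes, went from 39.8% ± 0.946 to 31.5% ± 0.588 of a sum that grew from 13.8 to 17.5 RPKM, with no called change of its own level (0.0073, limma adjusted p = 0.914).

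LAMB3, which encodes the β3 chain that assembles with α3, rose too. It went from 0.173, 0.271, 0.262 and 0.327 RPKM in the control libraries to 0.81, 0.543, 0.568 and 0.54 RPKM, with SB-treated replicate 1 the highest. That is a ratio of 2.39 at a low level, and a log2 fold change of 0.36 ± 0.061 (limma adjusted p = 5.73e-04). The mean level of LAMB3 in SB-treated cells thus stayed below 1 RPKM while LAMA3 stood at 7.37 ± 0.122 RPKM. LAMB3 and the other genes outside a naming rule that kept the largest changes, the most abundant gene of each class and a fixed set of 11 were picked for description after their values had been seen.

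The windows around the RefSeq start sites of these 2 induced laminin genes, LAMA3 and LAMB3, are shown because they head the rise among the laminins. Each runs from 250 bases before to 50 bases after the start, 5′ to 3′ on the gene's strand in GRCh38.p14. LAMA3 lies at chr18:23872770-23873069 (plus strand) and LAMB3 at chr1:209652376-209652675 (minus strand). Capitals mark GGGCGG (GC box) and TGACTCA (AP-1 site) and their reverse complements. The RefSeq start of LAMA3 lies 183567 bases from the canonical start in GENCODE, and reads counted over the gene cannot tell transcripts of these starts apart.
LAMA3: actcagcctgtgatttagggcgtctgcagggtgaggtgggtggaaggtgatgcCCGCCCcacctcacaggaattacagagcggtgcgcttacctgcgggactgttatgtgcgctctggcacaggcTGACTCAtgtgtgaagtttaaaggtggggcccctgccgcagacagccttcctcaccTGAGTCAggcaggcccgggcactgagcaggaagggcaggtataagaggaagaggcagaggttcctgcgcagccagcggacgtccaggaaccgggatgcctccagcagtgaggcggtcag
LAMB3: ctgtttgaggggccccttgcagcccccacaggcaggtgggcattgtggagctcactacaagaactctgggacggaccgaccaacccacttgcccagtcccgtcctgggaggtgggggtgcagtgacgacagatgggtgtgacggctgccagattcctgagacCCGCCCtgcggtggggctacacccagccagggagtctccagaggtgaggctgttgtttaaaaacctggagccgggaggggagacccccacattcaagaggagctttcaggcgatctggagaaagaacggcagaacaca
The LAMA3 window held TGACTCA from position -125 relative to the start and its reverse complement from position -69. Of the 46 genes with a window, 2 (LAMA3 and ITGA5) held this motif, 4.35% against 4.96% of all 34943 windows, a share near the background. The 46 are a single window per gene, the nearest to its GENCODE start, while all windows can include several per gene.

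LAMC1 and LAMB1 were the most abundant laminin chains. LAMC1, the γ1 chain of most laminins, had 44.2, 47.4, 43.8 and 46.8 RPKM in the control libraries and 44.3, 44.1, 44.7 and 44.6 RPKM in the SB-treated libraries. These ranges overlapped, and the change was not called (-0.035 ± 0.036, limma adjusted p = 0.413). LAMB1, its usual β partner, fell from 23.9, 25.9, 25.6 and 27.2 to 21.7, 21.3, 22.1 and 21.8 RPKM with no overlap (-0.23 ± 0.042, limma adjusted p = 9.27e-04). Among the other α chains, LAMA4, found in vessel and muscle membranes, fell (1.81 ± 0.14 to 1.32 ± 0.034 RPKM), LAMA5, the most widespread α chain of adult membranes, fell with overlapping groups (3.67 ± 0.557 to 2.94 ± 0.246 RPKM, a call lost in 5 of the 8 fits without a library), and LAMA1 (5.48 ± 0.487 to 5.5 ± 0.168 RPKM) and LAMA2 (0.328 ± 0.033 to 0.336 ± 0.0295 RPKM) were not called. LAMB2 (12.2 ± 2.25 to 12.3 ± 0.289 RPKM) and LAMC3 (6.51 ± 1.05 to 6.37 ± 0.357 RPKM) were not called either. In all, 2 laminin genes were higher and 4 lower of 11, against 33% higher and 32.6% lower among all genes, a difference not tested. LAMB2 and LAMC3 were called lower once control replicate 1, their lowest control library, was left out (-0.11, limma adjusted p = 0.00529, and -0.12, limma adjusted p = 0.0314).

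**Figure D2:**
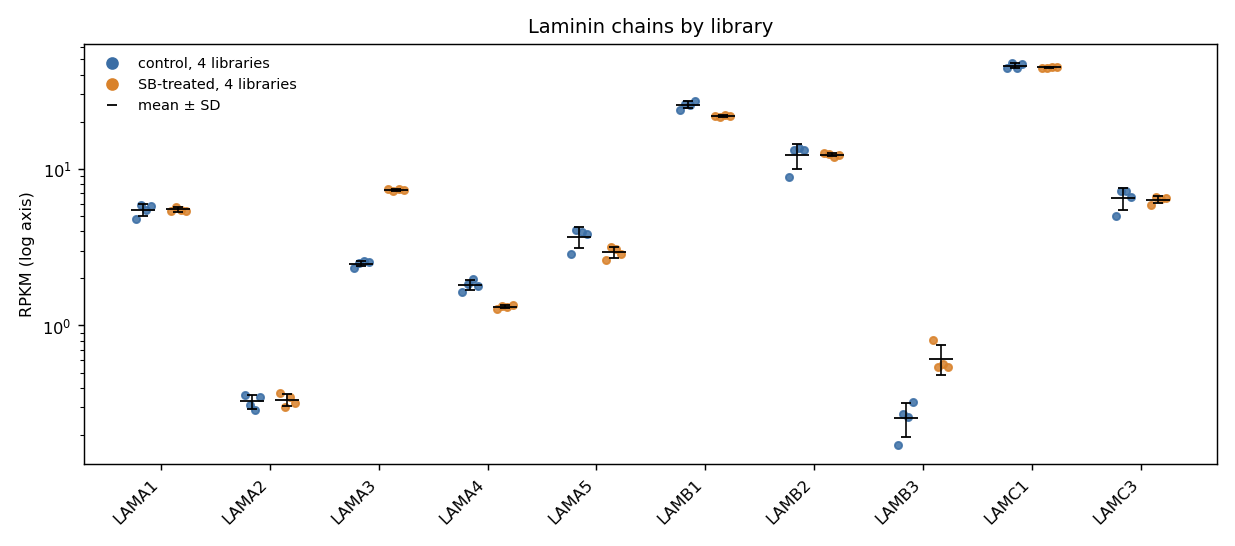
RPKM of 10 laminin chains (log axis) in the 4 control (blue) and 4 SB-treated (orange) libraries, with bars for the mean ± SD. The SB-treated libraries lie at 7.37 ± 0.122 for LAMA3 against 2.49 ± 0.102 in the control, while LAMC1 stays between 43.8 and 47.4 RPKM in all 8 libraries.

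The 4 proteins that join the networks all fell. NID1, the nidogen that bridges laminin and collagen IV, was with ITGB1 one of the most abundant of the 63 genes, at 66.3, 72.8, 69.1 and 72.7 RPKM in control cells. In SB-treated cells it was at 60.0, 61.0, 61.3 and 60.4 RPKM, below every control library, with a log2 fold change of -0.21 ± 0.039 (limma adjusted p = 0.00108). FN1 encodes fibronectin, the fibre-forming ligand of α5β1 integrin, and went from 11.7, 13.8, 12.7 and 14.1 to 9.2, 9.35, 9.44 and 9.33 RPKM. Its groups did not overlap, and the fold change was -0.44 ± 0.053 (limma adjusted p = 6.48e-05). NID2 fell from 11.6 ± 0.895 to 10.0 ± 0.0921 RPKM, also without overlap. For HSPG2, control replicate 1 (1.11, 1.64, 1.53 and 1.57 RPKM over the 4 control libraries) lay within the SB-treated values (1.13, 1.18, 0.99 and 0.997 RPKM), and the change was -0.24 ± 0.07 (limma adjusted p = 0.0117). Summed over the 4 genes, RPKM went from 96.4 ± 5.31 to 81.1 ± 0.751. The NID2 and HSPG2 exons overlap those of RTRAF and LDLRAD2 on the other strand by 1909 and 2122 bases.

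The 6 chains of collagen IV, the network collagen of basement membranes, did not move together. COL4A1 and COL4A2 form its common α1α1α2 trimer, and of the pair only COL4A2 was called, as lower. COL4A2 was at 9.64, 11.6, 11.7 and 11.6 RPKM in the control and 7.66, 8.67, 7.98 and 7.78 RPKM in the SB-treated libraries, with no overlap. Its log2 fold change was -0.43 ± 0.064 (limma adjusted p = 2.71e-04). COL4A1 had 6.36, 6.73, 6.73 and 6.91 against 6.17, 6.5, 6.11 and 6.08 RPKM and was not called (-0.09 ± 0.037, limma adjusted p = 0.0533), and it reached the threshold without control replicate 1 (-0.11, limma adjusted p = 0.00612).

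The chains of the more restricted trimers are given one by one. COL4A5, whose loss causes X-linked Alport syndrome, rose from 4.96, 5.19, 5.14 and 5.39 to 7.86, 7.48, 7.69 and 7.43 RPKM with no overlap. That is a log2 fold change of 0.48 ± 0.035 (limma adjusted p = 3.39e-06), the largest rise among the collagens on log2(RPKM + 1). COL4A6, its neighbour, rose from 3.91 ± 0.30 to 4.32 ± 0.0854 RPKM with overlapping groups (0.12 ± 0.046, limma adjusted p = 0.0453), a call lost in 7 of the 8 fits that left out a library (limma adjusted p of 0.0592 to 0.114) and with an intensity trend. COL4A4 had 0.175, 0.209, 0.233 and 0.211 RPKM in the control and 0.471, 0.457, 0.407 and 0.416 RPKM in the SB-treated libraries, a ratio of 2.12. COL4A3 had 0.0551, 0.0502, 0.0519 and 0.0544 and 0.151, 0.149, 0.123 and 0.135 RPKM, a ratio of 2.64 that rests on means of 17.0 and 47.0 reads, and its exons overlap MFF-DT on the other strand by 838 bases. The share of COL4A2 in the summed RPKM of the 6 chains fell from 41.0% ± 1.60 to 30.0% ± 1.15, and that of COL4A5 went from 19.1% ± 0.628 to 28.5% ± 1.0.

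**Figure D3:**
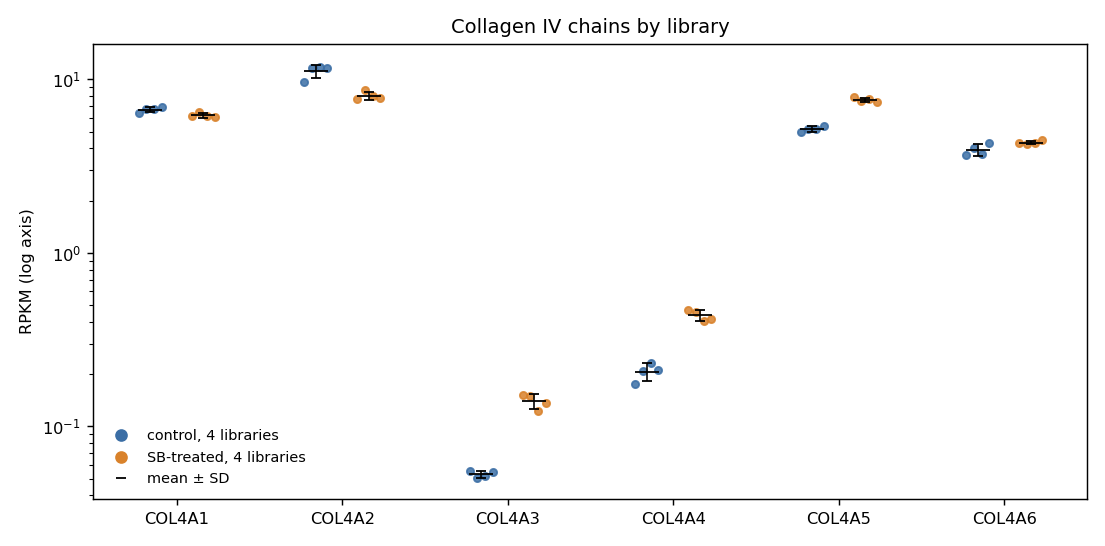
RPKM of the 6 collagen IV chains (log axis) in the 4 control (blue) and 4 SB-treated (orange) libraries, with bars for the mean ± SD. COL4A2 lies lower in SB-treated cells (11.1 ± 1.01 against 8.02 ± 0.451), COL4A3, COL4A4 and COL4A5 lie higher, and COL4A1 and COL4A6 overlap between the groups.

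The collagen IV genes lie head to head in pairs, so that one stretch of DNA serves both partners. Windows of COL4A2 at chr13:110307034-110307333 (plus strand) and COL4A3 at chr2:227164374-227164673 (plus strand) are shown. COL4A2 was called lower, while its partner COL4A1 fell short of the threshold (-0.09, limma adjusted p = 0.0533). COL4A3 and its partner COL4A4 were both called higher. The log2 ratio of the partners moved by 0.37 for COL4A1 over COL4A2, with the groups apart, and by 0.31 for COL4A3 over COL4A4, with overlapping groups. COL4A3 rests on means of 17.0 and 47.0 reads and exceeded 1 CPM in the SB-treated libraries alone. The COL4A2 window shares 226 bases with the window of COL4A1, and the COL4A3 window shares 82 bases with that of COL4A4. The windows are written as above, and capitals also mark the CCAAT box (its letters are its name) and its reverse complement.
COL4A2: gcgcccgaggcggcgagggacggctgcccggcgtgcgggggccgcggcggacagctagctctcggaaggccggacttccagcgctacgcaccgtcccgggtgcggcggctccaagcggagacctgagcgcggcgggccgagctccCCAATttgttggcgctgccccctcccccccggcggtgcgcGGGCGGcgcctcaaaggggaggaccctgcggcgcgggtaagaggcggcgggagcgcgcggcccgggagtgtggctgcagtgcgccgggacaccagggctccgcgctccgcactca
COL4A3: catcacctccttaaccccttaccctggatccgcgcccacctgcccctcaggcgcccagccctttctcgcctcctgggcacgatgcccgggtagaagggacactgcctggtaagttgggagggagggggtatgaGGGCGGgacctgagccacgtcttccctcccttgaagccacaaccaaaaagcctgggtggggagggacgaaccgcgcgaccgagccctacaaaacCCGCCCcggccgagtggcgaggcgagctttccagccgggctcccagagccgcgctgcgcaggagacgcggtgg
The COL4A2 window had CCAAT from position -105 and GGGCGG from position -65. COL4A3 had GGGCGG from position -117 and its reverse complement from position -23. GGGCGG was found in 30 of the 46 windows, 65.2% against 44.9% of all windows, and CCAAT in 9, 19.6% against 34.6%. TATAAA was found in 4 (8.7% against 11.6%). Median GC content was 69.2% in the 46 windows and 58.7% in all. As above, all windows can include several per gene. GGGCGG was in 12 of the 20 windows of higher genes and in 11 of the 15 of lower genes.

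Pairs of the genes whose starts lie within 250 kb of each other were compared by the log2 ratio of the first to the second RPKM in each library. There were 9 such pairs, of which 8 are described. This ratio is free of library size. For COL4A1 over COL4A2, whose starts are 127 bases apart, it went from -0.73 ± 0.092 to -0.37 ± 0.045 (SD, n = 4), a difference of 0.37. For COL4A5 over COL4A6, 1416 bases apart, the difference was 0.41, and for COL6A1 over COL6A2 it was -0.72. COL1A1 over ITGA3 moved by -0.90, COL3A1 over COL5A2 by -0.88 and COL6A5 over COL6A6 by 1.45. In these 6 pairs the groups did not overlap, and the exact permutation p, two-sided, was 0.0286, the smallest that 4 against 4 can give (0.0367 after Benjamini-Hochberg over the 9 pairs). For COL4A3 over COL4A4 (0.31) and ITGA1 over ITGA2 (0.30) the groups overlapped and the exact permutation p was 0.0571. How often such ratios lie apart for neighbouring pairs over the whole table was not examined. Among single genes of the table, 31% lay apart as higher and 30.5% as lower, so separation alone does not mark out these pairs.

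**Figure D4:**
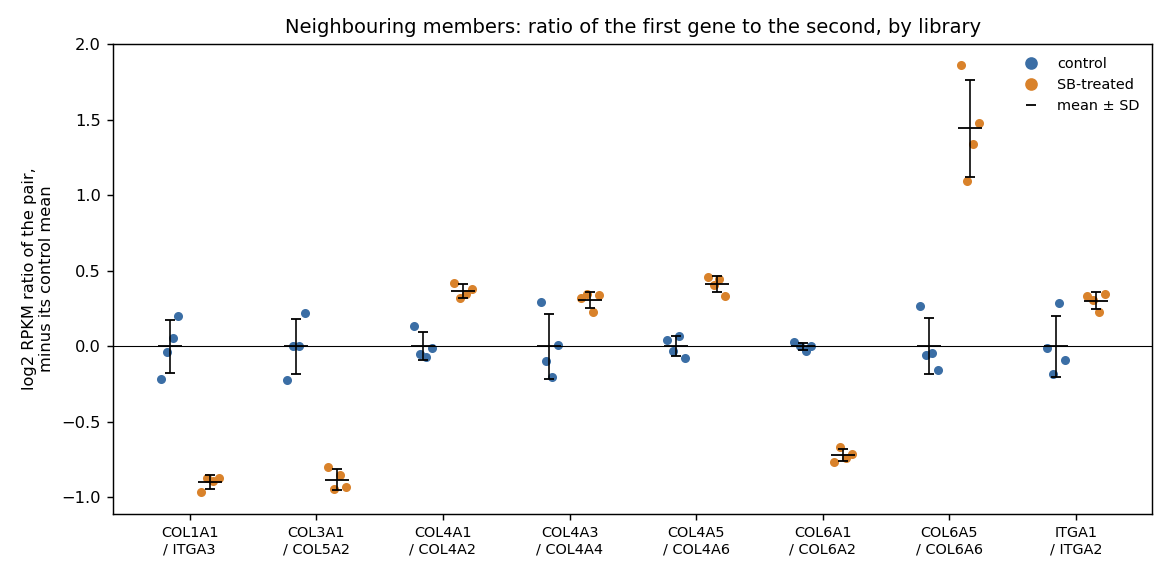
Log2 RPKM ratio of 8 neighbouring pairs in each library, minus the mean ratio of the control libraries (vertical axis), for the 4 control (blue) and 4 SB-treated (orange) libraries, with bars for the mean ± SD. The groups are apart in 6 pairs, with differences from -0.90 for COL1A1 over ITGA3 to 1.45 for COL6A5 over COL6A6. The share of such pairs over the whole table was not examined.

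Collagen VI, which forms beaded filaments around cells, was the most abundant collagen. Its α1 chain COL6A1 fell from 43.1, 46.2, 47.9 and 43.9 to 27.8, 32.4, 31.4 and 30.0 RPKM, with all SB-treated libraries below all control libraries. The log2 fold change was -0.56 ± 0.054 (limma adjusted p = 1.53e-05). COL6A2, the α2 chain that assembles with it in one trimer, was at 18.3, 19.9, 21.1 and 19.0 and 20.4, 22.2, 22.6 and 21.2 RPKM and was called higher with overlapping groups (0.14 ± 0.051, limma adjusted p = 0.0373). That call was lost in 6 of the 8 fits without a library (limma adjusted p of 0.0528 to 0.105), and the sign was the opposite, and called, after a correction of log2 CPM for GC content and length (-0.08). COL6A3, the third chain of the common trimer, stood at 0.0885 ± 0.0224 to 0.142 ± 0.0127 RPKM, far below the other two, with no overlap between the groups. It was not called, but was called higher with a pseudocount of 0.1 (0.36, limma adjusted p = 0.00436), with voom (0.71, limma adjusted p = 0.00399) and with an intensity trend. COL6A5 rose (0.137 ± 0.00979 to 0.255 ± 0.0287 RPKM) and COL6A6 fell (0.303 ± 0.031 to 0.208 ± 0.0313 RPKM), both below 1 RPKM, and the COL6A6 call was lost without control replicate 2 or 4 or SB-treated replicate 1. COL7A1, which forms the anchoring fibrils beneath epithelia, rose from 0.284, 0.33, 0.348 and 0.363 to 0.593, 0.644, 0.644 and 0.598 RPKM, a ratio of 1.87.

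Of the cartilage collagens, COL9A3 and COL2A1 fell the most of all 63 genes. COL9A3, the α3 chain of the FACIT collagen IX, had 4.4, 4.91, 4.57 and 4.29 RPKM in the control and 1.7, 2.21, 2.39 and 2.29 RPKM in the SB-treated libraries, which is less in each of the 4 than in any control. The log2 fold change was -0.82 ± 0.071 (limma adjusted p = 8.34e-06) and the ratio 0.472. COL9A2, a second chain of collagen IX, fell too, from 0.865 ± 0.0434 to 0.529 ± 0.0444 RPKM (-0.29 ± 0.036). COL2A1, the main fibrillar collagen of cartilage, fell from 5.45, 7.08, 7.74 and 7.34 to 4.02, 4.15, 3.79 and 3.66 RPKM without overlap (-0.68 ± 0.086, limma adjusted p = 9.31e-05). COL11A2, which joins it in cartilage fibres, was not called at 0.0265 ± 0.00336 to 0.0254 ± 0.00124 RPKM. Its level is understated against other genes, since the gene length behind the RPKM was 6.24 times the length of its annotated exons.

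Among the other fibrillar collagens, COL3A1, a chain of skin and vessel fibres, fell from 2.17, 2.54, 2.58 and 2.68 to 1.61, 1.43, 1.41 and 1.54 RPKM (-0.48 ± 0.052, limma adjusted p = 3.35e-05). COL5A1 and COL27A1 rose slightly (0.17 and 0.17), while COL5A2 and COL24A1 were not called. COL1A1, the main chain of bone and skin collagen, had 3.48, 5.35, 5.38 and 5.24 RPKM in the control libraries and 4.1, 4.13, 4.06 and 4.1 RPKM in the SB-treated libraries. Control replicate 1 alone lay below the SB-treated values, and the change was not called (-0.19 ± 0.10, limma adjusted p = 0.133). Without that library it was -0.31 and called (limma adjusted p = 2.38e-06). The other FACIT collagens split, with COL14A1 lower (4.03 ± 0.133 to 2.94 ± 0.165 RPKM), COL12A1 higher (0.529 ± 0.0561 to 1.03 ± 0.053 RPKM, ratio 1.94) and COL19A1 higher (0.368 ± 0.0284 to 0.477 ± 0.0241 RPKM). The membrane-spanning COL25A1 rose (5.56 ± 0.368 to 6.29 ± 0.325 RPKM), a call lost without control replicate 3 or 4 or SB-treated replicate 1, and COL13A1 fell (5.29 ± 0.194 to 4.57 ± 0.158 RPKM), and COL18A1, the source of endostatin, fell (9.81 ± 0.814 to 8.24 ± 0.431 RPKM, with 1563 bases of exon overlapping SLC19A1 on the other strand). COL26A1 fell as well (2.92 ± 0.159 to 2.01 ± 0.14 RPKM). By class, 12 collagens were higher and 11 lower of 29, against 33% higher and 32.6% lower among all genes. This difference from the background was not tested.

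Of 13 integrin α subunits 8 were called higher, 2 lower and 3 not called, where 33% of all genes were called higher and 32.6% lower, and this difference from the background was not tested. The 8 include ITGA10, kept by a filter on low values only through the SB-treated libraries, and ITGAV, whose call was lost in most fits without a library. Of the 6 β subunits ITGB5 alone was called. The 3 RGD-binding α subunits taken here, which bind fibronectin and related ligands, were all called higher. ITGA2B, a further RGD-binding subunit, was outside the symbol patterns. ITGA5, the α subunit of the fibronectin receptor, went from 12.2, 15.2, 13.9 and 15.3 to 16.6, 16.9, 17.6 and 16.0 RPKM without overlap (0.24 ± 0.066, limma adjusted p = 0.0108), while its ligand FN1 fell. ITGAV, the α subunit of vitronectin receptors, had 13.7, 11.8, 12.3 and 11.4 RPKM in the control and 14.3, 13.3, 13.5 and 13.8 RPKM in the SB-treated libraries, which overlap because of control replicate 1. Its change was 0.15 ± 0.055 (limma adjusted p = 0.0348), and the call was lost in 6 of the 8 fits without a library (limma adjusted p of 0.0583 to 0.0946). ITGA8 rose from 4.08, 3.64, 3.29 and 3.45 to 5.29, 4.95, 5.12 and 4.91 RPKM (0.40 ± 0.053, limma adjusted p = 1.32e-04).

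The 3 laminin-binding α subunits differed. ITGA3, the α subunit of a receptor for laminins that hold the α3 chain, rose from 1.37, 1.86, 1.75 and 1.54 to 2.71, 2.56, 2.55 and 2.54 RPKM, a ratio of 1.59 (0.45 ± 0.057, limma adjusted p = 9.27e-05). ITGA6, which pairs with β1 or with the hemidesmosome subunit β4, fell from 6.49, 5.35, 5.81 and 5.61 to 5.26, 5.34, 5.15 and 5.1 RPKM with the groups all but touching (-0.13 ± 0.05, limma adjusted p = 0.0426). The ITGA6 call was lost in 6 of the 8 fits that left out a library, with an intensity trend and without TMM factors (-0.042, limma adjusted p = 0.456). ITGA7, a subunit of muscle, was not called (2.28 ± 0.318 to 2.69 ± 0.257 RPKM). Among the collagen-binding subunits, ITGA1 rose (2.62 ± 0.166 to 3.48 ± 0.201 RPKM) and ITGA10 rose at a level below 1 RPKM (0.111 ± 0.0304 to 0.258 ± 0.0205 RPKM), while ITGA2 (2.71 ± 0.277 to 2.91 ± 0.148 RPKM) was not called (0.078 ± 0.057, limma adjusted p = 0.252). ITGA1 shares 499 exon bases with PELO on the same strand.

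ITGAE, known from lymphocytes that lodge in epithelia, fell from 5.99, 5.93, 6.62 and 6.01 to 4.22, 4.28, 4.03 and 4.14 RPKM, without overlap (-0.47 ± 0.04, limma adjusted p = 8.33e-06). ITGA4, a subunit of receptors for VCAM1 and fibronectin, rose from 6.5, 5.66, 5.34 and 5.84 to 7.63, 7.35, 7.56 and 7.32 RPKM (0.31 ± 0.051), and 2813 bases of its exons overlap CERKL on the other strand. ITGA9 rose (1.46 ± 0.0181 to 1.67 ± 0.096 RPKM) and ITGAX was not called. ITGB1, the β subunit shared by most of these α subunits, had 85.6, 67.9, 68.3 and 67.5 RPKM in the control and 69.9, 68.8, 68.2 and 69.5 RPKM in the SB-treated libraries. Control replicate 1 stood above the other 7 libraries, which span 67.5 to 69.9 RPKM. NID1 exceeded ITGB1 in 3 of the 4 control libraries, and no change of ITGB1 was called (-0.058 ± 0.072, limma adjusted p = 0.494). ITGB5, a partner of αv, rose from 9.07 ± 0.838 to 10.2 ± 0.329 RPKM with overlapping groups (0.16 ± 0.059, limma adjusted p = 0.0371), and the call was lost in 4 of the 8 fits without a library (limma adjusted p of 0.0719 to 0.0905). ITGB3, ITGB4, ITGB7 and ITGB8 lay below 1 RPKM in every library and were not called. ITGB1 made up 87.2% ± 2.18 of the summed RPKM of the 6 β subunits in control and 85.5% ± 0.522 in SB-treated cells.

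**Figure D5:**
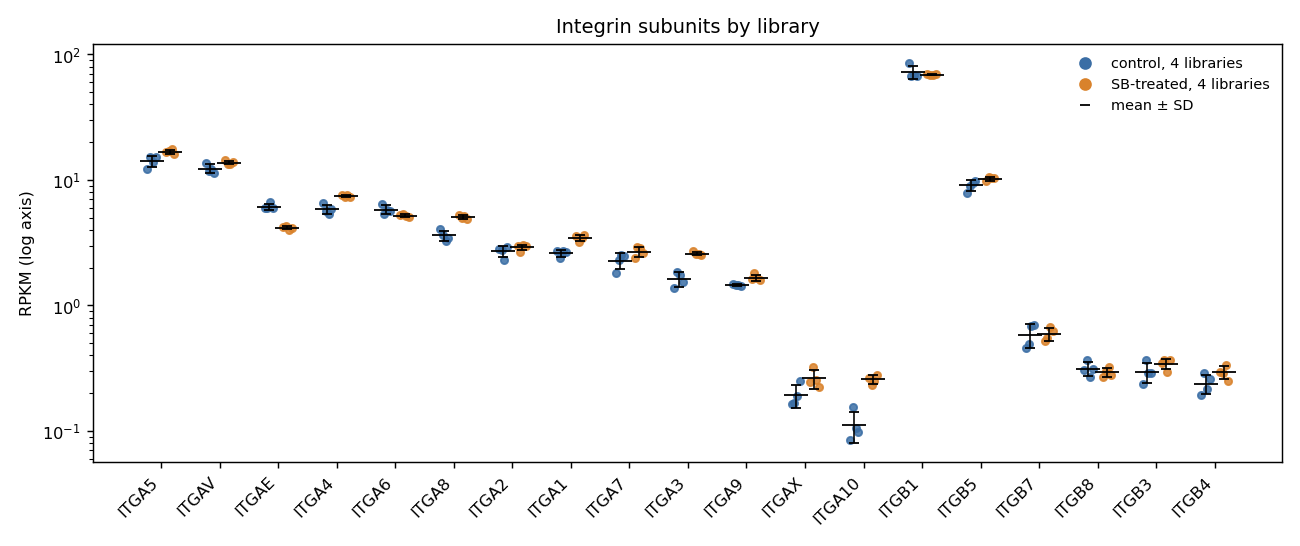
RPKM of the 19 integrin subunits (log axis), α subunits first, in the 4 control (blue) and 4 SB-treated (orange) libraries, with bars for the mean ± SD. ITGA3, ITGA8 and ITGA4 lie higher and ITGAE lower in SB-treated cells, and ITGB1 is near 68 RPKM in 7 libraries and at 85.6 RPKM in control replicate 1.

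Genes that make, bind or cut these proteins were read from lists of related genes, whose counts stand against 33% higher and 32.6% lower among all genes. Of 28 collagen-processing genes with a row, 7 were higher and 9 lower, and the prolyl 3-hydroxylases P3H2 (0.637 ± 0.0823 to 1.59 ± 0.101 RPKM) and P3H3 (14.5 ± 1.74 to 21.3 ± 0.215 RPKM) and the lysyl oxidase LOXL4 (1.87 ± 0.0956 to 3.32 ± 0.129 RPKM) rose past 0.5 on the log2 scale. Of 26 genes of integrin adhesions, 5 were higher and 9 lower, with the focal adhesion protein TGFB1I1 at 1.07 ± 0.172 to 2.48 ± 0.336 RPKM the largest change. Among 13 other receptors for laminin and collagen, 4 were higher and 4 lower. DAG1, which encodes dystroglycan, a laminin receptor, rose from 9.55, 12.2, 11.2 and 12.4 to 19.97, 20.6, 19.7 and 19.6 RPKM (0.77 ± 0.069, limma adjusted p = 1.03e-05). DST, whose epithelial product ties hemidesmosomes to keratin, rose from 8.33 ± 0.192 to 18.3 ± 0.549 RPKM (1.05 ± 0.035), and MRC2, a receptor that takes up collagen, fell from 14.0 ± 1.61 to 9.05 ± 0.166 RPKM (-0.57 ± 0.072). Of 18 matrix proteases and inhibitors, 9 were higher and 3 lower, and ADAMTS1 fell from 80.8 ± 1.41 to 43.5 ± 0.223 RPKM (-0.88 ± 0.03, limma adjusted p = 9.06e-08). Of 17 other matrix glycoproteins, 5 were higher and 8 lower, with SMOC1, a basement membrane protein, down from 7.91 ± 0.319 to 4.6 ± 0.0985 RPKM. The median log2 fold change of these 5 lists lay between -0.13 and 0.11.

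Markers of other cell types were read as well. Of 8 fibroblast markers 3 had a row, with a summed RPKM of 6.09 to 7.37 in the control and 6.70 to 7.22 in the SB-treated libraries, and the ranges overlapped. TWIST1, the most abundant of these (5.69 to 5.73 RPKM), and PDGFRA were not called, while LUM was called higher without overlap (0.347 to 0.61 RPKM). Of 8 epithelial markers 5 had a row, and their sum was 57.0 to 67.4 in the control and 71.1 to 72.4 in the SB-treated libraries. These 5 did not move together: KRT8 and 2 others were called higher, CDH1 was called lower (0.867 to 0.535 RPKM) and KRT18 was not called. Of the endothelial markers, KDR was called lower (0.314 to 0.145 RPKM) and ESAM higher (0.85 to 1.95 RPKM). The 3 leukocyte markers with a row summed to 2.249 to 3.157 RPKM in the control and 2.196 to 2.529 RPKM in the SB-treated libraries. Of these, IKZF1 was called higher without overlap (0.0865 to 0.171 RPKM), and LCP1 and CORO1A were not called. The part of these differences in the results above was not tested.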

How the data were processed

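RNA from 4 control and 4 SB-treated cultures was sequenced by the authors as 50 bp single reads from a stranded total RNA kit. Per the submitters' processing notes, TopHat2 2.1.0, featureCounts 1.5.0 and edgeR 3.16.5 were used with hg38, and whether the counting used strand is not given in the sources used here. The authors deposited RPKM per gene and library, scaled with TMM factors. The deposited table also holds the authors' log2 fold changes and mean log2 CPM, and their p-values and FDR, none of which were used. The number of per-sample columns left unused was 0.

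Depth was recovered from the RPKM: whole reads came back for 100% of 14526 genes (largest relative error 6.58e-08), and 14524 of these had over 1 CPM in at least 2 samples. Groups came from the sample labels. limma 3.58.1 (R 4.3.3, Python 3.11.15 for the other steps) was fitted to log2(RPKM + 1), p-values were adjusted across the whole table by Benjamini-Hochberg, and the fit was tested on simulated data. The genes and lists were chosen with earlier results of these data known. Named genes were those with an adjusted p below 0.05 and a log2 fold change of at least 0.5 in size, 11 fixed genes (COL4A1, COL4A2, LAMB1, LAMC1, FN1, NID1, HSPG2, ITGA5, ITGAV, ITGA6 and ITGB1), the most abundant gene of each class and, from the other lists, up to 4 genes past both thresholds. Pairs of neighbours were compared with an exact permutation test, two-sided. The replicates are separate samples in the labels, and limma p-values weigh the group difference against the spread between them. Gene positions and exon overlaps are from GENCODE release 44 and windows from RefSeq (GRCh38.p14), which matched 46 of 63 genes. Alternatives were another pseudocount, no TMM factors, median-of-ratios scaling, a read minimum of 10, voom, an intensity trend, a replicate block, leaving out each library and, added after seeing the data, corrections for GC content and length. Values of 1 of the 63 genes are not reported here.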

Additional observations from a re-analysis of the deposited data

Results flagged for a closer look

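In 4 of 40 groups of 4 libraries examined for the named genes, 1 library stood apart from the rest by Dixon's ratio, the gap to the nearest library over the whole range. About 1 in 20 groups, or 2 of 40, is flagged by chance. Control replicate 1 was the lowest for COL4A2 (ratio 0.924) and the highest for ITGB1 (ratio 0.953). Control replicate 3 was the highest for ITGAE (ratio 0.869), and SB-treated replicate 2 the lowest for ITGA2 (ratio 0.831). Control replicate 1 stood apart in this way in 14.6% of the whole table and in 7.94% of the 63 genes. Every other library did so in 0.317% to 2.3% of the whole table. Without control replicate 1, 5459 of all genes were called higher and 5511 lower, against 4787 and 4740 with all libraries. Among the 63 genes the counts were 21 higher and 25 lower, against 23 and 21.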

How the results depend on the processing

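With a pseudocount of 0.1, 10 of the 63 genes were higher and 7 lower past a log2 fold of 0.5, against 1 and 3, and 1609 of all genes were higher past it, against 744. Voom on the recovered reads gave 11, 8 and 1820. Without TMM factors these were 3 higher genes of the 63, and 1214 higher and 416 lower of all genes, the last against 792. Added after seeing the data, a GC and length correction gave 13 higher genes against 23, and 10 lower past 0.5. The same correction of log2 CPM gave 8 higher and 15 lower past 0.5 among the 63, and 1648 higher of all genes. Voom with a replicate block gave 11 and 8 among the 63, and 1801 higher and 1196 lower of all genes. The cause of these shifts was not tested, apart from the pseudocount, which by construction shrinks low genes. Leaving out 1 library gave 19 to 21 higher and 17 to 25 lower genes, and past 0.5 1 higher and 3 to 4 lower. Among the 20 named genes, signs turned for COL4A1 (0.00095), LAMC1 (0.068) and ITGB1 (0.046) without TMM factors. ITGB1 also turned without control replicate 1 (0.025), and ITGA2 under the GC and length correction (-0.00075). LAMA1 turned under that correction (-0.17), under that of log2 CPM (-0.22) and without control replicate 1 (-0.045) or SB-treated replicate 2 (-0.011). Signs also turned for genes outside the named set. Under the GC and length correction these included COL4A3, COL4A6, COL5A1, COL6A2, COL7A1 and COL27A1, all called higher in the main fit. Leaving out 1 library in turn, ITGB1 ranged from -0.088 to 0.025 and LAMA1 from -0.045 to 0.035. Of the 20 named genes, 11 kept direction and call in all 18 alternatives. The replicate block changed the call of 1 gene, ITGA7 (adjusted p = 0.0139 with the block). Same-numbered libraries deviated together with correlations of 0.38, 0.33, 0.17 and -0.16, so the numbers are not shown to pair the samples. Genes at 15 to 50 reads are the least precise.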
